A study of Arabidopsis thaliana with 18 samples.

Results

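The effect of a FLOE1 deletion on messenger RNA was compared, gene by gene, between salt-held and dry seeds of Arabidopsis thaliana. The effect is the log2 fold change of ΔDS over +WT seeds, and the difference is the effect in salt minus the effect in dry seeds. Genes were taken where the deposited mean normalised count was at least 20 in both the salt and the dry comparison. That left 13974 of the 33602 genes listed. Both genotypes are complemented lines. ΔDS seeds carry a transgene with the DS segment deleted, and +WT seeds carry the intact transgene. The labels do not name the gene. As known from the study, it is FLOE1 (AT4G28300), and DS is a stretch of its protein rich in aspartic acid and serine. The 4 groups used were ΔDS salt, +WT salt, ΔDS dry and +WT dry, with 3 libraries each, or 12 of the 18 libraries of the series. Salt seeds were kept with 220 mM NaCl, first in the cold and dark (4 °C, 5 days) and then in light at 22 °C for 4 hours, whereas dry seeds had no water. Imbibed seeds had the treatment of the salt seeds with 0 mM NaCl, and their values are given only beside a result.

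The labels do not say whether libraries came from separate mother plants or how many independent lines stand for each genotype, so the p-values measure the spread between these libraries, which may be technical. RNA came from whole seeds, in which fewer cells of a type and less RNA per cell cannot be told apart. The files hold no value per library. Levels are therefore group means implied by the deposited mean and fold change, in normalised counts, and the salt and dry comparisons were normalised separately. Mean normalised counts summed to 2.61e+07 in the salt and 2.64e+07 in the dry table, and the most abundant 10 genes took 18.1% and 16.9% of them. Totals of the single libraries, and so their depth, are unknown. For genes with means of 500 to 2000 the median standard error of the effect was 0.0878 in salt and 0.0860 in dry seeds. The files do not state the sign of the fold change, which was taken as ΔDS over +WT because the files name ΔDS first, and every direction given here would turn if that order were the reverse.

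A dry Arabidopsis seed holds messenger RNAs left over from maturation, among them those of storage proteins, oil body proteins, late embryogenesis abundant (LEA) proteins and heat shock proteins. When the seed takes up water, these stored transcripts decline and transcripts for translation, DNA repair and growth appear, and high salt holds this programme back. FLOE1 is known as a seed protein that forms condensates when the embryo is hydrated and that restrains germination when water is scarce.

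The promoters of 6 genes show the letters on which the later counts of promoter motifs rest. They are the 250 bases before the annotated start in the RefSeq annotation of TAIR10.1, read 5′ to 3′ on the strand of the gene. The first pair belongs to seed storage albumins, whose transcripts were lower in ΔDS seeds in both conditions. Capitals mark ACGTG, the core of abscisic acid response elements, and CATGCA, the RY element bound by seed maturation regulators, on either strand.
SESA4 (chr4:13613346-13613595, + strand): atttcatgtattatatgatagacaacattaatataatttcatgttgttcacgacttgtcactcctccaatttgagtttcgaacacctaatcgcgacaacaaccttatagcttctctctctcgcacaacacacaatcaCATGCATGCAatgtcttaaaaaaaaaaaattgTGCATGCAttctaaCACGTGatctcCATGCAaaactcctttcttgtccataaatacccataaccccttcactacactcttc
SESA5 (chr5:22239188-22239437, − strand): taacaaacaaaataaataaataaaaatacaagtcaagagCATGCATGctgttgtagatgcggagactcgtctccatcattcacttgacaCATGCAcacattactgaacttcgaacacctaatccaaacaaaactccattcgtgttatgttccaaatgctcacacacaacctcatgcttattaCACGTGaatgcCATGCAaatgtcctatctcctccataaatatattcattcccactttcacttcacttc
The next 3 belong to genes whose transcripts were higher in ΔDS seeds in salt and not in dry seeds. Capitals mark the site bound by the DNA damage regulator SOG1, which is CTT and AAG with 7 free bases between them and reads alike on both strands. The TSO2 window holds no such run of letters.
SMR5, AT1G07500 (chr1:2305032-2305281, − strand): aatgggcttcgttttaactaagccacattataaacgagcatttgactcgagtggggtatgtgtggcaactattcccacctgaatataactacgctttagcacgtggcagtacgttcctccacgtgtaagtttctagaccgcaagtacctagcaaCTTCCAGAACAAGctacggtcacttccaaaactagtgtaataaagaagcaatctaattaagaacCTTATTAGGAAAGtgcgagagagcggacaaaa
GAMMA RESPONSE 1, AT3G52115 (chr3:19325785-19326034, + strand): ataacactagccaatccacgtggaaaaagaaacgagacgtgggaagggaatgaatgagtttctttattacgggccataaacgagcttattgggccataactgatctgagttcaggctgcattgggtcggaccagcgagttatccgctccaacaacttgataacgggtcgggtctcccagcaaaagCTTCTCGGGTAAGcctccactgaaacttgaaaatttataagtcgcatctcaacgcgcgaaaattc
TSO2 (chr3:9981621-9981870, − strand): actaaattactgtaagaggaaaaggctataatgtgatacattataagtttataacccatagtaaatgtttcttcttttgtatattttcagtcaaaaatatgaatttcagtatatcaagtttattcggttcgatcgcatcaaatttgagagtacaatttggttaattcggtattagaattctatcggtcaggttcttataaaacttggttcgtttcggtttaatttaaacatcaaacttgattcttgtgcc
The last belongs to a small heat shock protein whose transcript was lower in ΔDS seeds in salt. Capitals mark GAANNTTC, the core of heat shock elements.
HSP17.4 (chr3:16984868-16985117, − strand): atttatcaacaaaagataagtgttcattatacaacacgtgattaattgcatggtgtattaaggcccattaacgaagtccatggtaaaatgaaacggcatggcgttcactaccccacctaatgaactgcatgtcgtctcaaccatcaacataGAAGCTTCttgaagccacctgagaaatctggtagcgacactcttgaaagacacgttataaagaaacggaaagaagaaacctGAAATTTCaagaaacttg

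FLOE1 itself was far lower in ΔDS seeds in both conditions, which touches every comparison below. Its implied mean was 431 in ΔDS and 13777 in +WT seeds in salt, and 180 in ΔDS and 8288 in +WT seeds when dry. In the authors' deposited tables this was a log2 fold change of -5.00 ± 0.067 (SE) in salt and -5.53 ± 0.090 in dry seeds. The reads counted for FLOE1 thus differ between the groups, beside the deleted segment, and the deletion, the line and the amount of transcript cannot be told apart here. How far the missing segment itself lowers the count was not tested, since the files do not say how reads over it were counted. The effect was 0.53 ± 0.11 less negative in salt (adjusted p = 0.000133, z test of the difference with Benjamini-Hochberg adjustment over the 13974 genes, as for every adjusted p of a difference below).

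More genes differed between genotypes in salt than in dry seeds, and most of the salt effects were not called in the dry seed. By the authors' adjusted p below 0.05, 2254 genes (16.1%) differed in salt, with 991 higher (7.09%) and 1263 lower (9.04%) in ΔDS. In dry seeds 941 (6.73%) differed, with 457 higher (3.27%) and 484 lower (3.46%). The effect itself differed between the conditions for 977 genes (6.99%), and it was higher in salt for 261 (1.87%) and lower in salt for 716 (5.12%). With a t distribution of 8 degrees of freedom in place of the normal one, which allows for the few libraries, only 32 higher and 54 lower differences were called, and 83 of the 118 named genes with a called difference lost the call. In a further alternative the effects of each condition were shifted so that the implied group means of ΔDS and +WT seeds had equal sums. It is called scaling by library totals below, although the true totals are unknown and the sums start from the authors' normalised counts. With it 430 were higher and 339 lower, so the share that was higher was 55.9%, against 26.7% without the shift. That scaling moved the median effect from -0.02 to 0.14 in salt and from 0.01 to 0.09 in dry seeds.

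Both calls sort the genes into persistent, opposite, new and lost effects. An effect called in both tables with the same sign is termed persistent, and 347 genes had one, 121 higher and 226 lower in ΔDS. Opposite signs were called for 56 genes, of which 7 were higher and 49 lower in ΔDS in salt. An effect is termed new in salt where it was called there, not called in dry seeds, and the difference was called, and 588 genes had one, 181 higher and 407 lower. The mirror case, lost in salt, held for 153 genes, 109 higher and 44 lower in dry ΔDS seeds. A further 1263 genes were called in salt alone and 385 in dry seeds alone without a called difference. Their median differences were 0.23 and -0.22 for the 682 higher and 581 lower genes in salt. For the 178 higher and 207 lower genes in dry seeds they were -0.26 and 0.18. Being called in salt alone or in dry seeds alone favours that side even for equal effects. These medians therefore cannot show whether the effects differed, and a missed call does not show equal effects either. Another 119 were called in neither table but differed between them.

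**Figure D1:**
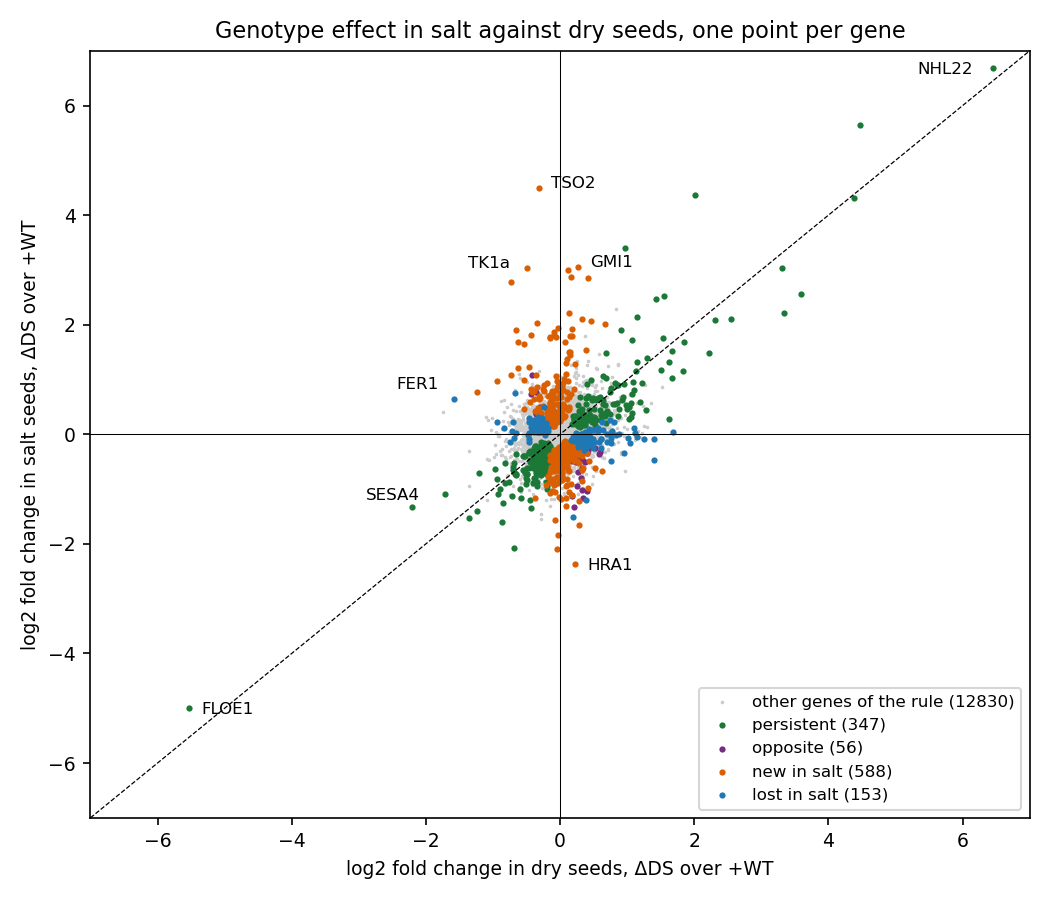
Effect in salt seeds (vertical axis) against effect in dry seeds (horizontal axis), both as log2 fold change of ΔDS over +WT, with 1 point per gene, class colours and a dashed line of equal effects. FLOE1 and NHL22 lie near the dashed line, while TSO2, TK1a and GMI1 lie between -0.50 and 0.26 on the horizontal axis and above 3 on the vertical one.

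**Figure D2:**
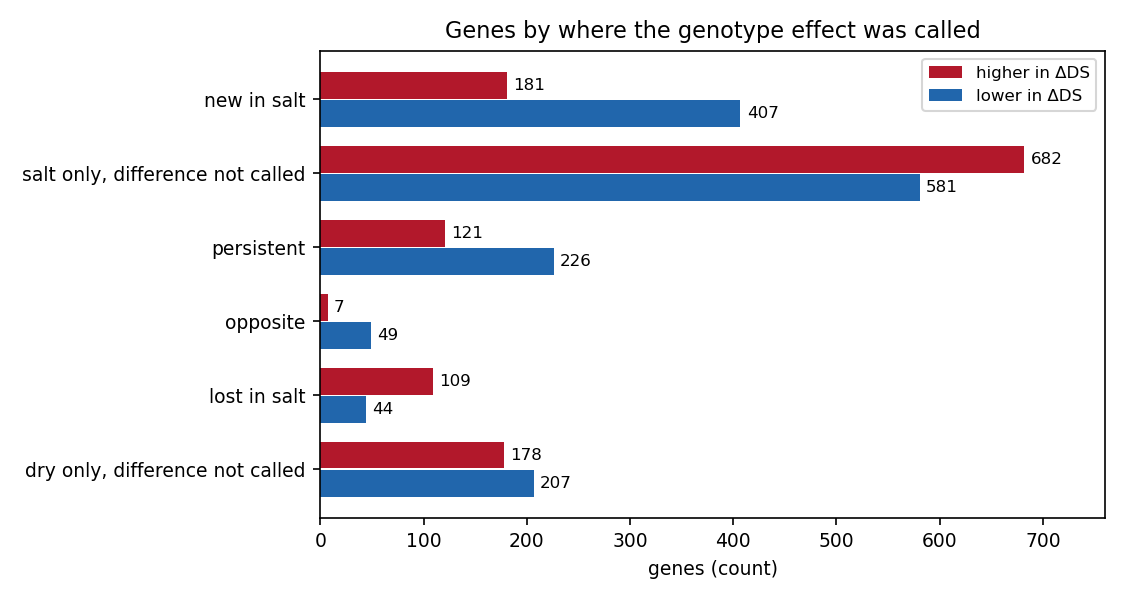
Number of genes in each class, with genes higher in ΔDS in red and lower in blue. For the classes lost in salt and dry only the direction is that in dry seeds, and for the others that in salt. The longest bars are the 682 higher and 581 lower genes called in salt alone without a called difference, and the 407 lower genes new in salt.

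Part of the effects of the dry seed were also called in salt. Of the 484 genes lower in dry ΔDS seeds, 411 (84.9%) had the same sign in salt, 226 (46.7%) were also called lower there and 7 were called higher. Of the 457 genes higher in dry ΔDS seeds, 296 (64.8%) had the same sign in salt, 121 (26.5%) were also called higher there and 49 were called lower. For comparison, 7459 of all 13974 genes had a negative effect in salt, where 9.04% were called lower and 7.09% higher. Seen from the salt side, 121 of 991 increases (12.2%) and 226 of 1263 decreases (17.9%) were called the same way in the dry seed. Over all genes 3.27% were called higher and 3.46% lower there. Over all 13974 genes Pearson's r between both effects was 0.348 and Spearman's rho 0.198, given as a description across genes, which are not replicates. The dry effect was correlated with transcript length across genes: Spearman's rho with exon length was 0.256 in dry seeds, 0.004 in salt seeds and -0.182 for the difference (13958 genes). Of 4 equal groups of genes by length, the longest had 50 differences called higher and 273 lower, and the shortest 78 and 143. With the length trend removed from both effects, 273 differences were called higher and 527 lower, against 261 and 716 without that step. Whether length plays a part in these differences was not tested further.

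The persistent increases with the largest effects were those of a few genes that were scarce in +WT seeds. NHL22 (AT4G09590), of a family of membrane proteins named after defence genes, had implied means of 223 in ΔDS and 2.18 in +WT seeds in salt, and 432 in ΔDS and 4.94 in +WT seeds when dry. Its log2 fold change in the authors' deposited tables was 6.68 ± 0.62 in salt and 6.45 ± 0.41 in dry seeds. The difference of 0.23 ± 0.74 was not called (adjusted p = 0.928), with a 95% interval of -1.22 to 1.69. AT5G13210, an uncharacterised gene, had 79.4 in ΔDS and 3.98 in +WT seeds in salt, and 147 in ΔDS and 7.07 in +WT seeds when dry. The UDP-glycosyltransferase genes AT3G46700 and AT3G46690, which are neighbours in name and may share reads, were higher in ΔDS by log2 5.65 and 3.03 in salt and by 4.46 and 3.30 in dry seeds in the authors' deposited tables. FLC (AT5G10140), the floral repressor of vernalisation, was chosen after its values were seen, and it had 1754 in ΔDS and 1032 in +WT seeds in salt and 1913 in ΔDS and 1140 in +WT seeds when dry. Its difference was 0.02 ± 0.11 (adjusted p = 0.965).

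A few persistent increases were larger in salt. AT4G09595, an uncharacterised gene beside NHL22 in the locus order, had 653 in ΔDS and 31.8 in +WT seeds in salt, and 460 in ΔDS and 114 in +WT seeds when dry. Its difference was 2.35 ± 0.25 (adjusted p = 1e-17). AT2G43120, which RefSeq lists as PIRIN2, of the cupin fold, had 1162 in ΔDS and 110 in +WT seeds in salt, and 127 in ΔDS and 65.2 in +WT seeds when dry, with a difference of 2.44 ± 0.35 (adjusted p = 6.05e-10). Both differences were called under each alternative run for them other than a minimum size, and AT2G43120, with a dry mean of 96.1, was not part of the one with a minimum mean of 100.

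Genes of sulphur limitation were higher in ΔDS seeds in both conditions, and 4 of 10 less so in salt. This list of 16 was drawn up after the values were seen, so its counts only describe it. Of the 10 members measured, 9 were called higher in salt and 9 in dry seeds, beside 7.09% and 3.27% of all genes. The difference was lower for 4 and higher for 0, beside 5.12% and 1.87% of all genes. The median effect was 0.60 in salt and 1.06 in dry seeds. APR3 (AT4G21990), an adenosine phosphosulphate reductase that commits sulphate to cysteine synthesis, had 2540 in ΔDS and 1874 in +WT seeds in salt, and 1450 in ΔDS and 595 in +WT seeds when dry. Its difference was -0.85 ± 0.11 (adjusted p = 5.28e-11) and was called under each alternative other than a minimum size. The calls of the other members with a lower difference, AT1G04770, APR2 and APR1, ended with the t distribution. Those of APR2 and APR1 also ended with scaling by totals and with the larger error. That of APR1 further ended with the length trend removed, with centring and with no minimum mean. SDI1 (ATSDI1, AT5G48850), a repressor of glucosinolate synthesis induced by sulphur shortage, had 531 in ΔDS and 237 in +WT seeds in salt, and 174 in ΔDS and 48.9 in +WT seeds when dry, and its difference was not called (adjusted p = 0.0904). In the authors' deposited table for imbibed seeds APR1, APR2 and APR3 had log2 fold changes of -0.71, -0.57 and -0.83, the opposite sign.

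Seed storage and oil body genes were lower in ΔDS seeds in both conditions. Of the 22 listed, all within the rule, 16 were called lower in salt and 14 in dry seeds, beside 9.04% and 3.46% of all genes. Among the 22, 12 were persistent and 0 were called higher in either. The differences went both ways, with 4 higher and 10 lower in salt, beside 1.87% and 5.12% of all genes. Their median was -0.16, beside -0.03 over all genes. Among the 2S albumins SESA1 to SESA5, similar copies that may share reads, SESA1, SESA2 and SESA4 were less reduced in salt, and SESA3 and SESA5 had no called difference. SESA4 (AT4G27170) had 14975 in ΔDS and 31812 in +WT seeds in salt, and 18249 in ΔDS and 59623 in +WT seeds when dry, with a difference of 0.62 ± 0.09 (adjusted p = 5.14e-09). SESA2 (AT4G27150) was lower in dry ΔDS seeds, with 3632 in ΔDS and 6113 in +WT seeds, and had 57068 in ΔDS and 62608 in +WT seeds in salt, a difference of 0.62 ± 0.09 (adjusted p = 3.78e-09).

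The vicilin-like and cruciferin globulins and the oleosins showed the other pattern. PAP85 (AT3G22640), a vicilin-like globulin, had 164369 in ΔDS and 288737 in +WT seeds in salt, and 513046 in ΔDS and 552831 in +WT seeds when dry. Its effect was thus new in salt, with a difference of -0.71 ± 0.07 (adjusted p = 4.55e-21). Cruciferin genes CRU2 (AT1G03880) and CRA1 (AT5G44120) were more reduced in salt by -0.40 ± 0.08 and -0.31 ± 0.06 on the log2 scale, while CRU3 (AT4G28520) had nearly equal effects of -0.27 in salt and -0.22 in dry seeds in the authors' deposited tables. OLEO1, OLEO2 and OLEO4, which coat oil bodies, were also more reduced in salt, with differences of -0.33, -0.30 and -0.33.

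LEA genes, whose products protect dried cells, were lower in ΔDS in both conditions. Of 26 measured members of 30 listed, 17 were called lower in salt and 20 in dry seeds, beside 9.04% and 3.46% of all genes. Among the 26, 15 were persistent and 0 were called higher. With scaling by library totals 11 were called lower in each condition and 3 higher in salt. ATECP31 (AT3G22500), a seed maturation protein, was new in salt, with 34860 in ΔDS and 50553 in +WT seeds in salt and 109559 in ΔDS and 112509 in +WT seeds when dry (difference -0.50 ± 0.07, adjusted p = 2.46e-10). AT4G36600 had 9200 in ΔDS and 15491 in +WT seeds in salt, and 57611 in ΔDS and 70234 in +WT seeds when dry (difference -0.47 ± 0.07, adjusted p = 1.02e-08). In AT3G53040 the decrease was lost in salt, with 53231 in ΔDS and 52005 in +WT seeds there and 92049 in ΔDS and 114242 in +WT seeds when dry. Other persistent decreases were in GASA3 and GASA2, small gibberellin-regulated peptides, with log2 fold changes of -1.01 and -1.25 in salt and -0.89 and -0.85 in dry seeds in the authors' deposited tables.

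Genes of deoxynucleotide supply and of the DNA damage response were among those with large upward effects new in salt, beside genes of other kinds. New is meant against dry seeds, from which salt seeds also differ in water and in the cold and light treatment. These cannot be told apart from NaCl in this comparison. In imbibed seeds, without NaCl, TSO2, TK1a and RNR1 had log2 fold changes of 3.05, 1.99 and 0.96 in the authors' deposited table. AT3G52115 had 2.63 there, while SMR5 (AT1G07500) had -0.20 and was not called. TSO2 (AT3G27060), a small subunit of ribonucleotide reductase, which makes DNA precursors, had 11446 in ΔDS and 506 in +WT seeds in salt, and 39.3 in ΔDS and 49.1 in +WT seeds when dry. In the authors' deposited tables its log2 fold change was 4.50 ± 0.070 in salt and -0.32 ± 0.37 in dry seeds. The difference of 4.82 ± 0.38 was the largest of the 977 called ones (adjusted p = 2.24e-34). TK1a (AT3G07800), a thymidine kinase, had 1164 in ΔDS and 142 in +WT seeds in salt, and 47 in ΔDS and 66.3 in +WT seeds when dry (difference 3.53 ± 0.31, adjusted p = 4.65e-26). RNR1 (AT2G21790), the large subunit of ribonucleotide reductase, had 5665 in ΔDS and 2000 in +WT seeds in salt, and 665 in ΔDS and 606 in +WT seeds when dry (difference 1.37 ± 0.12, adjusted p = 8.97e-28). These were the 3 of 8 measured genes of the list with a called difference, all higher in salt, beside 1.87% of all genes. RNR2A, another small subunit, had effects of 0.07 in salt and 0.08 in dry seeds in the authors' deposited tables.

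Of 17 measured DNA damage genes, 7 had a higher effect in salt and 1 a lower one, beside 1.87% and 5.12% of all genes. In dry seeds 0 of the 17 were called. Like the other gene lists here, this one was chosen with earlier results of these data known, so its counts only describe it. The median difference was 0.06. XRI1 (AT5G48720), an X-ray induced gene needed for repair, had 2470 in ΔDS and 640 in +WT seeds in salt, and 646 in ΔDS and 660 in +WT seeds when dry (difference 1.98 ± 0.13, adjusted p = 7.35e-47). GMI1 (AT5G24280), induced by gamma rays and mitomycin C, had 2710 in ΔDS and 327 in +WT seeds in salt, and 33 in ΔDS and 27.6 in +WT seeds when dry (difference 2.79 ± 0.42, adjusted p = 5.46e-09). SMR5 (AT1G07500), an inhibitor of cyclin-dependent kinases, was abundant in the dry seed, with 14615 in ΔDS and 14612 in +WT seeds, and had 4473 in ΔDS and 2664 in +WT seeds in salt (difference 0.75 ± 0.09, adjusted p = 1.61e-15). The standard error of the dry effect of SMR5 (AT1G07500) was 0.049 in the authors' deposited table, while those of TSO2 (0.37) and GMI1 (0.40), which had few dry counts, were wider.

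The other members with higher effects in salt were AT3G52115, ATRAD17 (AT5G66130), a DNA damage checkpoint gene, PARP1 (AT2G31320), a poly(ADP-ribose) polymerase, and SYN2 (AT5G40840), a cohesin subunit. Their differences were 2.71 ± 0.55, 1.92 ± 0.45, 1.06 ± 0.26 and 0.67 ± 0.09. The kinase ATM (AT3G48190), which signals strand breaks, was the member with a lower effect, at -0.22 in salt and 0.21 in dry seeds in the authors' deposited tables (difference -0.43 ± 0.13, adjusted p = 0.0158). That call ended with the length trend removed and with scaling by totals. The regulator SOG1 (AT1G25580) had 378 in ΔDS and 282 in +WT seeds in salt and 480 in ΔDS and 455 in +WT seeds when dry, and its difference of 0.34 ± 0.17 was not called (adjusted p = 0.267). The non-homologous end joining genes KU70, KU80 and ATLIG4 were called in neither condition. Among replication genes TIL1 (AT1G08260), the catalytic subunit of DNA polymerase epsilon, was the 1 of 9 with a called difference (1.64 ± 0.36, adjusted p = 0.000261). Meiotic recombination gene AHP2 (AT1G13330) and GEX1 (AT5G55490), a gene of gametes and embryos that was chosen after its values were seen, also gained an effect in salt, with differences of 2.38 ± 0.47 and 1.84 ± 0.12. Of 16 measured cell cycle genes 2 were called higher in salt and 0 had a called difference, beside 7.09% and 6.99% of all genes.

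**Figure D3:**
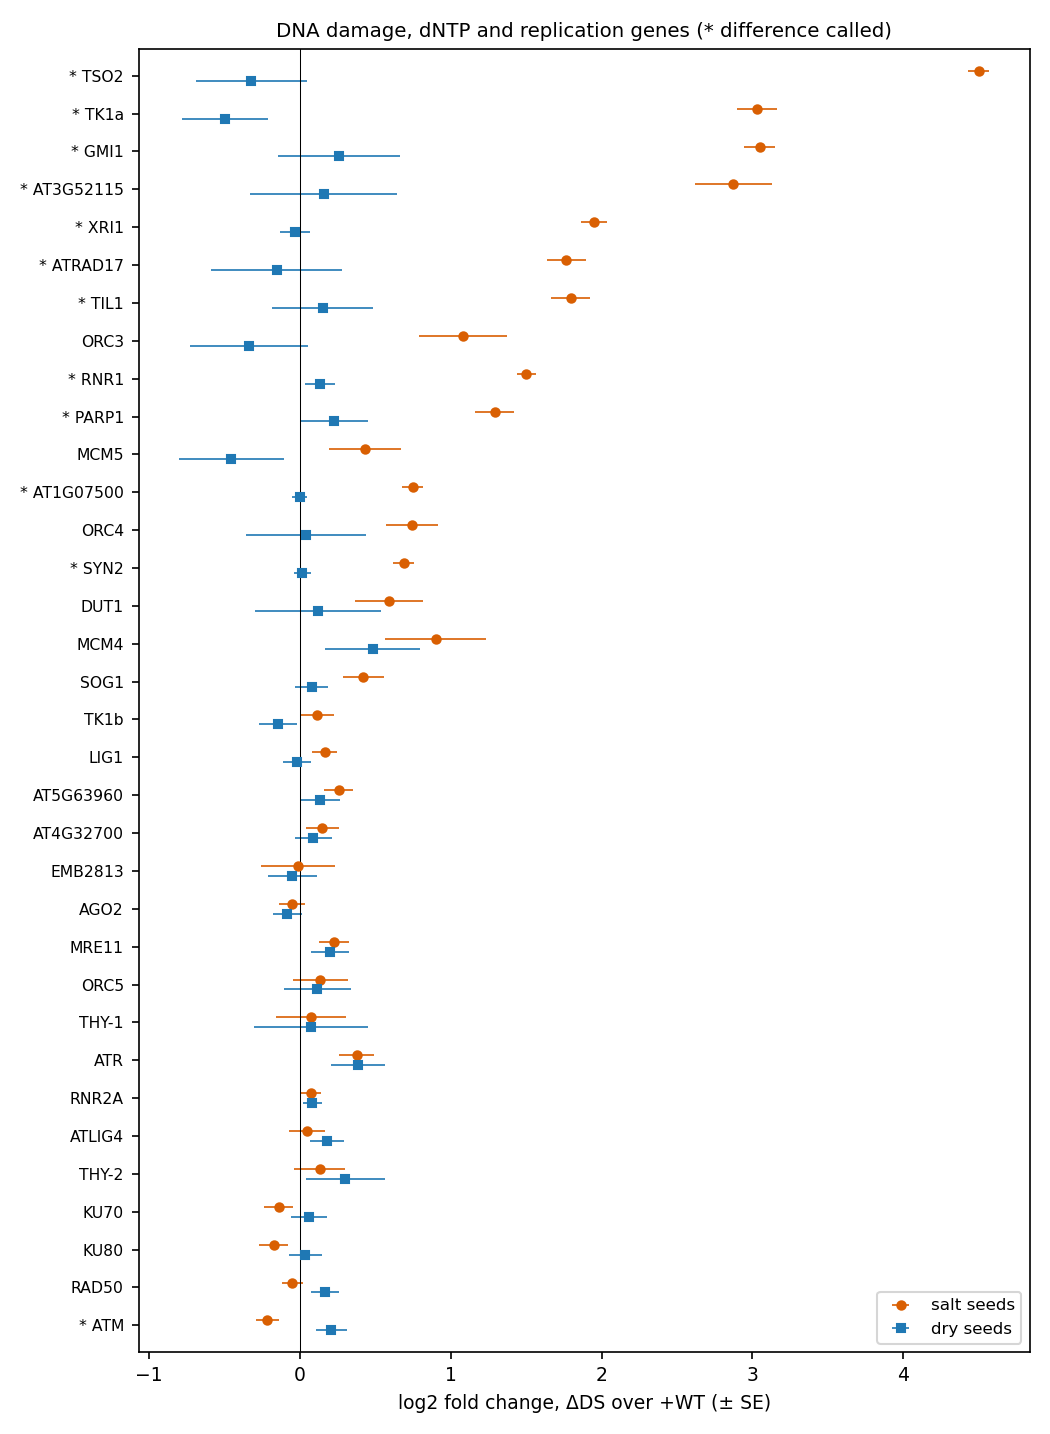
Log2 fold change of ΔDS over +WT (± SE) in salt (orange circles) and dry seeds (blue squares) for the measured genes of the DNA damage, deoxynucleotide (dNTP) and replication lists, ordered by the difference. Asterisks mark called differences: TSO2 lies at 4.50 in salt and -0.32 in dry seeds, and ATM at the bottom is the starred gene with the lower effect in salt.

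The minimum of 20 in dry seeds leaves out many genes of this kind, since they were near absent from the dry seed. Of the 32 listed DNA damage genes 15 fell outside the rule, and 12 of these were called higher in salt in the authors' deposited table, with log2 fold changes of 1.21 to 5.29. They include BRCA1 at 4.18, PARP2 at 3.05, CYCB1;1 at 2.78 and SMR7 (AT3G27630) at 5.29. Over all genes with a mean under 20 in dry seeds and at least 20 in salt there were 1456, of which 235 were called in salt, 217 higher and 18 lower. Genes reach that set more easily when they are high in salt in either genotype, so the count is a description. In the other direction 545 genes had a mean under 20 in salt only, of which 29 were called in dry seeds, 9 higher and 20 lower. Within the rule 249 genes had an implied mean under 20 in 1 of the 4 groups, among them 10 of the 977 with a called difference and 15 of the 347 persistent genes. Just inside the limit lay AT5G44040 and NAC083 (AT5G13180), with dry means of 20.07 and 20.09 and differences of 0.40 and 2.58. Just outside lay ATK4 (AT5G27000), with a dry mean of 19.995 and a difference of 0.31. So did AT2G07747, with a salt mean of 19.98 and a difference of 0.41.

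Other genes also had upward effects new in salt. GT72B1 (AT4G01070), a glycosyltransferase, and the uncharacterised AT4G37030 had differences of 2.44 ± 0.55 and 2.88 ± 0.60. ALPHA-VPE (AT2G25940), a vacuolar processing protease, had 302 in ΔDS and 44.1 in +WT seeds in salt, and 17.1 in ΔDS and 28.3 in +WT seeds when dry (difference 3.50 ± 0.49, adjusted p = 2.56e-10). The transcription factor WRKY25 (AT2G30250) had 252 in ΔDS and 78.6 in +WT seeds in salt, and 48.6 in ΔDS and 75.1 in +WT seeds when dry (difference 2.31 ± 0.33, adjusted p = 3.85e-10). The dehydrin ERD14 (AT1G76180) had a difference of 2.20 ± 0.44. In imbibed seeds GT72B1, ALPHA-VPE, WRKY25 and ERD14 had log2 fold changes of 2.11, 1.52, 0.77 and 3.20 in the authors' deposited table. Of 18 measured salt, osmotic and cold response genes 3 (16.7%) had a higher and 2 (11.1%) a lower effect in salt, beside 1.87% and 5.12% of all genes. LTI78 (AT5G52310, also RD29A), the classic osmotic marker, had 4167 in ΔDS and 2936 in +WT seeds in salt, and 2801 in ΔDS and 2550 in +WT seeds when dry (difference 0.37 ± 0.10, adjusted p = 0.00345). GolS1 (AT2G47180), which makes galactinol for raffinose sugars, went the other way, with 4362 in ΔDS and 6585 in +WT seeds in salt, and 17213 in ΔDS and 18134 in +WT seeds when dry (difference -0.52 ± 0.08, adjusted p = 4.44e-08).

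Cytosolic ribosomal protein genes were higher in ΔDS seeds in salt by small amounts. Of 154 measured, 108 were called higher in salt and 0 lower, while 1 was called higher and 0 lower in dry seeds. Over all genes 7.09% were called higher in salt and 3.27% in dry seeds. The median effect was 0.22 in salt and 0.03 in dry seeds. The difference was called higher for 14 (9.09%) and lower for 0, beside 1.87% and 5.12% of all genes. Another 93 of the members were called in salt alone without a called difference. With the length trend removed 8 differences were called higher, and with scaling by totals 23. AT2G20450, for ribosomal protein L14, had 1990 in ΔDS and 1451 in +WT seeds in salt, and 179 in ΔDS and 224 in +WT seeds when dry (difference 0.78 ± 0.18, adjusted p = 0.000556). AT1G58983 and AT1G58684, near-identical copies of an S5-family protein gene that may share reads, had differences of 0.33 ± 0.08 and 0.32 ± 0.08. Of 27 ribosome biogenesis genes 16 were called higher in salt (26 with scaling by totals) and 3 in dry seeds, and 1, the nucleolin NUC-L2 (AT3G18610), had a called difference (0.51 ± 0.16, adjusted p = 0.0328).

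Part of the proteasome subunit genes were higher in ΔDS seeds in salt. Of 27 measured, 11 were called higher and 1 lower in ΔDS seeds in salt, beside 7.09% and 9.04% of all genes. In dry seeds 0 were called. The difference was higher for 7 and lower for 1, beside 1.87% and 5.12% of all genes. The 7 encode subunits of the 20S core, 6 of them alpha subunits. PAD2 (AT5G66140) had 1792 in ΔDS and 1123 in +WT seeds in salt, and 316 in ΔDS and 317 in +WT seeds when dry (difference 0.68 ± 0.15, adjusted p = 0.000214). PAD1 (AT3G51260), its paralogue, had a difference of 0.47 ± 0.11. The member with the lower effect was AT1G53780, of the regulatory ATPases, with a difference of -0.54 ± 0.09. With the length trend removed 4 differences were called higher, and with scaling by totals 11, when 24 genes were called higher in salt. This list was also drawn up after values had been seen.

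Of 13 measured genes of small heat shock proteins, which hold unfolded proteins, 6 were called lower and 1 higher in ΔDS seeds in salt, while 0 were lower and 4 higher in dry seeds. Over all genes 9.04% were called lower and 7.09% higher in salt, and 3.46% lower and 3.27% higher in dry seeds. The difference was lower for 6 and higher for 0, beside 5.12% and 1.87% of all genes, with a median of -0.80. HSP17.6A (AT5G12030) had 4828 in ΔDS and 10948 in +WT seeds in salt, and 148525 in ΔDS and 147352 in +WT seeds when dry (difference -1.19 ± 0.16, adjusted p = 7.97e-11). HSP17.4 (AT3G46230) had 3665 in ΔDS and 7675 in +WT seeds in salt, and 83610 in ΔDS and 92680 in +WT seeds when dry (difference -0.92 ± 0.095, adjusted p = 3.48e-19). AT1G53540, of the same family, had opposite effects, with 184 in ΔDS and 400 in +WT seeds in salt and 7551 in ΔDS and 6702 in +WT seeds when dry (difference -1.29 ± 0.16, adjusted p = 2.4e-13). Their implied means were higher in the dry than in the salt table in both genotypes, on scales that were set separately.

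Larger chaperones had the same direction with more spread in salt. Of 16 other chaperone and heat shock factor genes, 7 had a lower and 0 a higher effect in salt, beside 5.12% and 1.87% of all genes. Their median difference was -0.55. With scaling by library totals 5 differences were lower, and 10 genes, against 5, were called higher in dry ΔDS seeds. HSP101 (AT1G74310), a disaggregase needed for heat tolerance, had 9295 in ΔDS and 23333 in +WT seeds in salt, and 42028 in ΔDS and 36369 in +WT seeds when dry. The standard error of its effect in the authors' deposited tables was 0.38 in salt and 0.052 in dry seeds, and the difference was -1.54 ± 0.39 (adjusted p = 0.00257). HSP90.1 (AT5G52640) had a like pattern, at -1.16 ± 0.40 in salt and 0.34 ± 0.049 in dry seeds in the authors' deposited tables. The calls for HSP101, HSP90.1 and the co-chaperone Hop3 (AT4G12400) ended with the larger of both errors in place of each. They also ended with the t distribution. HSP70T-2 (AT2G32120) and Hsp70b (AT1G16030), with differences of -0.67 ± 0.08 and -0.69 ± 0.10, were called under each alternative other than a minimum size, as were HSP17.6A, HSP17.4 and AT1G53540. HSFA9 (AT5G54070), the heat shock factor of seed maturation, had 654 in ΔDS and 914 in +WT seeds in salt, and 11001 in ΔDS and 11873 in +WT seeds when dry (difference -0.37 ± 0.10, adjusted p = 0.00881). BAG6 (AT2G46240) and ROF2 (AT5G48570), both heat-induced co-chaperones, were called higher in dry ΔDS seeds and not called in salt, with differences of -1.70 ± 0.57 and -1.58 ± 0.47. The calls of ROF2 and BAG6 ended with the larger error and with the t distribution. That of BAG6 also ended with scaling by totals, with the length trend removed and with no minimum mean.

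**Figure D4:**
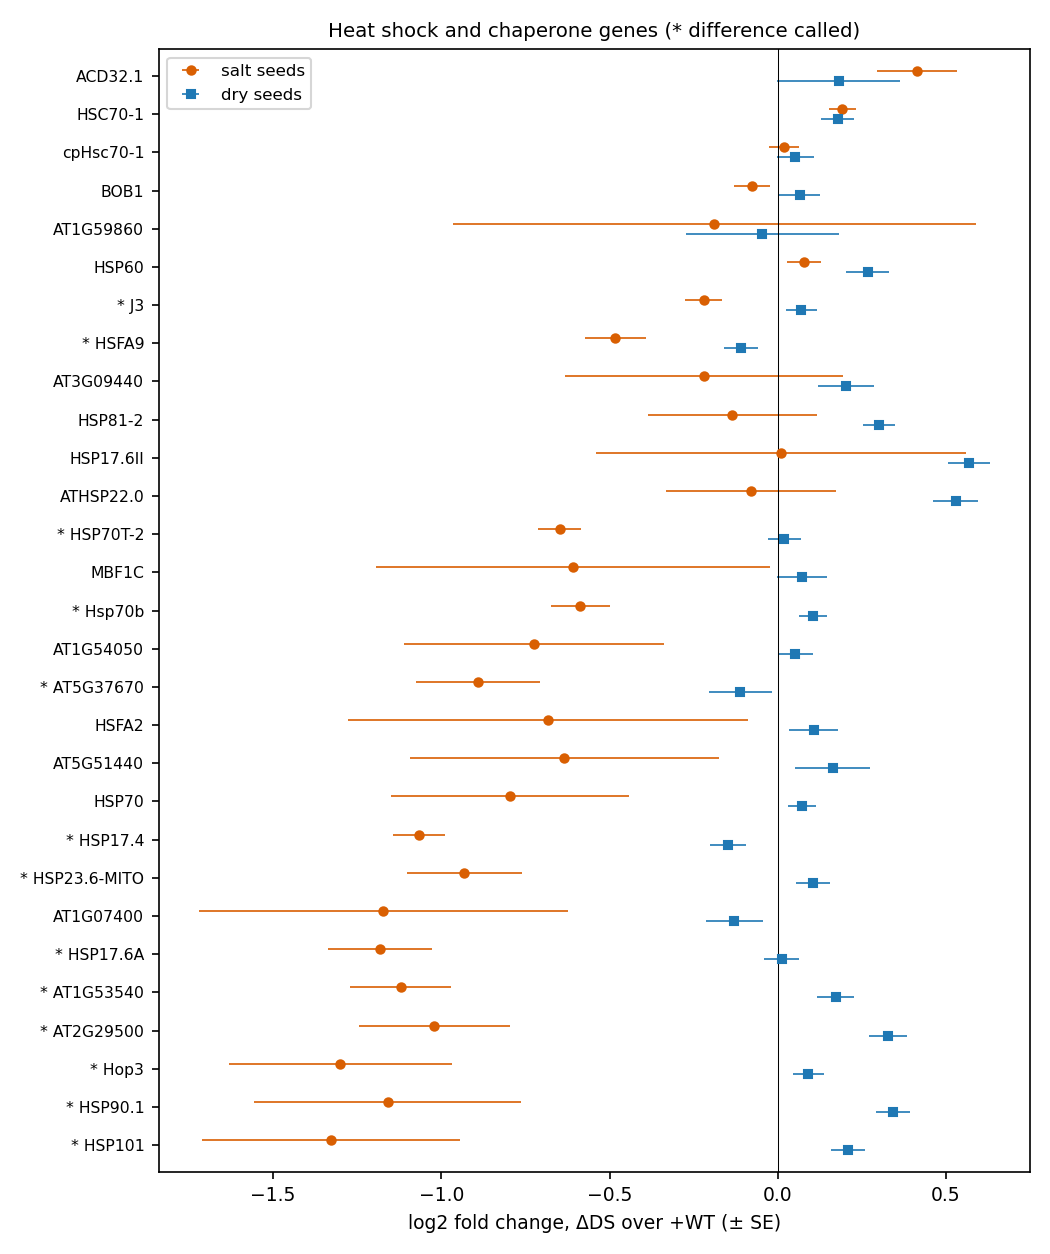
Log2 fold change of ΔDS over +WT (± SE) in salt (orange circles) and dry seeds (blue squares) for the measured heat shock and chaperone genes, ordered by the difference, with asterisks for called differences. The salt values of the starred genes lie below 0, and several salt errors are wide, such as those of HSP90.1 (0.40) and HSP101 (0.38).

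Genes induced by low oxygen were lower in ΔDS seeds in salt. Of 10 measured, 7 were called lower in salt and 2 in dry seeds, beside 9.04% and 3.46% of all genes. The difference was lower for 3, beside 5.12% of all genes. With scaling by library totals 2 were called higher and 5 lower in salt. HRA1 (AT3G10040), a transcription factor that tempers the low-oxygen response, had 400 in ΔDS and 2053 in +WT seeds in salt, and 66.9 in ΔDS and 57.6 in +WT seeds when dry. Its effect in salt had a standard error of 0.65 in the authors' deposited table, and the difference was -2.58 ± 0.71 (adjusted p = 0.00821). LBD41 (AT3G02550), a transcription factor also induced by low oxygen, had 671 in ΔDS and 2409 in +WT seeds in salt, and 308 in ΔDS and 316 in +WT seeds when dry (difference -1.81 ± 0.48, adjusted p = 0.00488). PCO1 (AT5G15120), an oxygen-sensing cysteine oxidase, had 1404 in ΔDS and 2101 in +WT seeds in salt, and 198 in ΔDS and 188 in +WT seeds when dry (difference -0.66 ± 0.18, adjusted p = 0.00668). All 3 calls ended with the larger of both errors and with the t distribution. ADH1 (AT1G77120), the alcohol dehydrogenase, was a persistent decrease at -0.32 in salt and -0.25 in dry seeds in the authors' deposited tables.

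Of 14 measured jasmonate genes 6 were called lower in ΔDS seeds in salt and 1 in dry seeds, beside 9.04% and 3.46% of all genes. The difference was lower for 4 and higher for 0, beside 5.12% and 1.87% of all genes, and 8 members had no call of any kind. With scaling by library totals 1 was called higher and 5 lower in salt. MYC2 (AT1G32640), the main transcription factor of the pathway, had 261 in ΔDS and 470 in +WT seeds in salt, and 166 in ΔDS and 132 in +WT seeds when dry (difference -1.18 ± 0.23, adjusted p = 2.83e-05). AOS (AT5G42650), an enzyme of jasmonate synthesis, had 449 in ΔDS and 791 in +WT seeds in salt, and 157 in ΔDS and 146 in +WT seeds when dry (difference -0.92 ± 0.20, adjusted p = 0.000252). The repressor genes TIFY10B (JAZ2) and JAZ3 had differences of -0.80 ± 0.24 and -0.40 ± 0.12. The calls of MYC2, AOS, TIFY10B and JAZ3 all ended with the t distribution. That of JAZ3 also ended with scaling by totals, with the length trend removed and with the larger error.

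Opposite effects were most often an increase in dry and a decrease in salt ΔDS seeds. UBQ3 (AT5G03240), a polyubiquitin gene, had 16954 in ΔDS and 23952 in +WT seeds in salt, and 41768 in ΔDS and 32390 in +WT seeds when dry (difference -0.87 ± 0.07, adjusted p = 6.73e-29). The glutathione transferase GSTU19 (AT1G78380) had 8578 in ΔDS and 10148 in +WT seeds in salt, and 14567 in ΔDS and 10107 in +WT seeds when dry (difference -0.77 ± 0.09, adjusted p = 1.13e-15). AT3G03270, of the universal stress protein fold, had 315 in ΔDS and 648 in +WT seeds in salt, and 1217 in ΔDS and 925 in +WT seeds when dry. The reverse order was seen in FER3 (AT3G56090), a ferritin that stores iron, with 657 in ΔDS and 511 in +WT seeds in salt and 429 in ΔDS and 551 in +WT seeds when dry (difference 0.72 ± 0.15, adjusted p = 0.000178). CHX26 (AT5G01680), a cation exchanger, had 46.3 in ΔDS and 21.8 in +WT seeds in salt, and 1060 in ΔDS and 1418 in +WT seeds when dry. The calls of FER3 and CHX26 ended with the t distribution, and that of CHX26 also with the larger error.

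Effects of the dry seed that were lost in salt included transporters and detoxification enzymes. Of 14 measured ABCC transporter genes, which move glutathione conjugates into the vacuole, 5 were called higher in dry ΔDS seeds and 0 in salt. Over all genes these shares were 3.27% and 7.09%. Of the 14 ABCC genes, 7 had a difference lower in salt, beside 5.12% of all genes. This list, too, was drawn up after values had been seen. ABCC10 (AT3G59140) had 2202 in ΔDS and 2046 in +WT seeds in salt, and 1064 in ΔDS and 498 in +WT seeds when dry (difference -0.99 ± 0.13, adjusted p = 1.58e-12). ABCC1 (AT1G30400) had 6738 in ΔDS and 7082 in +WT seeds in salt, and 3044 in ΔDS and 1805 in +WT seeds when dry (difference -0.83 ± 0.18, adjusted p = 0.000174). ABCC8 (AT3G21250) had a difference of -1.29 ± 0.27. Of 21 antioxidant and glutathione transferase genes 8 had a lower and 0 a higher effect in salt than in dry seeds. Over all genes these shares were 5.12% and 1.87%. With scaling by totals 5 of the 21 had a lower effect. GSTU7 (AT2G29420) had 1504 in ΔDS and 1594 in +WT seeds in salt, and 2099 in ΔDS and 1375 in +WT seeds when dry (difference -0.69 ± 0.10, adjusted p = 6.18e-09).

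AT5G55370, a membrane-bound O-acyl transferase gene, was a lost increase called under each alternative other than a minimum size, with 621 in ΔDS and 660 in +WT seeds in salt and 182 in ΔDS and 69.3 in +WT seeds when dry. The ferritin FER1 (AT5G01600) was a lost decrease, with 100 in ΔDS and 64.4 in +WT seeds in salt and 207 in ΔDS and 618 in +WT seeds when dry (difference 2.22 ± 0.27, adjusted p = 9.02e-14). ST2A (AT5G07010), a sulphotransferase that inactivates a hydroxylated jasmonate, had 640 in ΔDS and 548 in +WT seeds in salt, and 682 in ΔDS and 1306 in +WT seeds when dry (difference 1.16 ± 0.13, adjusted p = 6.96e-16).

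Of 27 measured abscisic acid and dormancy genes 4 (14.8%) had a lower and 0 a higher effect in salt, beside 5.12% and 1.87% of all genes, among them ABA1 (AT5G67030), which makes the precursor of abscisic acid, with 5562 in ΔDS and 6809 in +WT seeds in salt, and 13854 in ΔDS and 13466 in +WT seeds when dry (difference -0.33 ± 0.07, adjusted p = 0.000286). ABI2 and SNRK2.3 of abscisic acid signalling had differences of -0.51 ± 0.16 and -0.32 ± 0.09. Both calls ended with scaling by totals, and that of ABI2 also with the larger error. The calls of ABA1, ABI2 and SNRK2.3 all ended with the t distribution. With scaling by library totals 3 members had a higher and 2 a lower effect in salt than in dry seeds, and 7 were called higher and 2 lower in salt. Of 24 listed gibberellin genes 11 were within the rule, and of these 0 were called in the salt or the dry table of the authors' deposited tables (DESeq2) and 0 had a called difference. Of the 13 outside the rule 2 were called higher in salt, at log2 0.40 and 0.84. PIL5 (AT2G20180, also PIF1), which represses germination in the dark, had 8182 in ΔDS and 9717 in +WT seeds in salt, and 639 in ΔDS and 527 in +WT seeds when dry (difference -0.53 ± 0.11, adjusted p = 8.23e-05). In oil breakdown ICL (AT3G21720), the isocitrate lyase of the glyoxylate cycle, had a difference of -0.38 ± 0.06 and ACX2 (AT5G65110), an acyl-CoA oxidase, one of 0.35 ± 0.07.

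Of the markers of seed parts, 6 embryo, 2 endosperm and 2 seed coat genes were measured and 0 had a called difference. EPR1 (AT2G27380), an endosperm extensin, had 581155 in ΔDS and 813584 in +WT seeds in salt, and 871903 in ΔDS and 1112660 in +WT seeds when dry, a persistent decrease of -0.49 ± 0.16 in salt and -0.35 ± 0.075 in dry seeds in the authors' deposited tables. The seed coat markers TT2 and LDOX were listed at 0 in both tables. The part of a change in tissue proportions in any result was not tested.

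**Figure D5:**
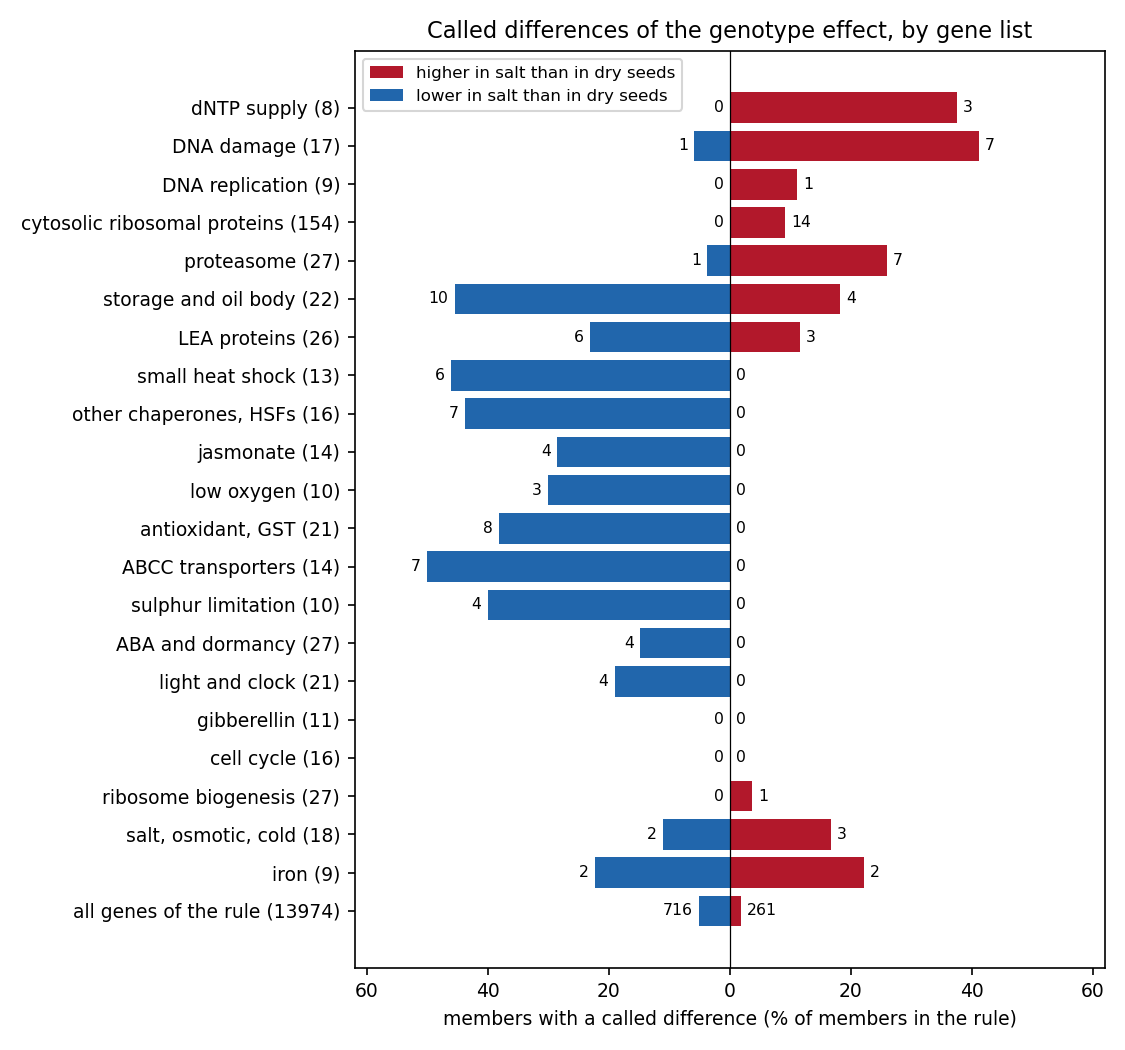
Share of measured members of each gene list with a called difference, higher in salt than in dry seeds to the right (red) and lower to the left (blue), with the number of genes beside each bar and the number measured in brackets. The lowest bar gives all 13974 genes, at 1.87% higher and 5.12% lower. The DNA damage list reaches 7 higher, and the heat shock lists have lower differences only.

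The imbibed seeds, whose comparison shares no library with either table, give a further set of effects for the same genes. In the authors' deposited table for imbibed seeds 6209 genes of the rule (44.4%) were called, 2569 higher (18.4%) and 3640 lower (26%). Of the 181 increases new in salt, 136 (75.1%) were also called higher in imbibed seeds, and of the 407 decreases new in salt 365 (89.7%) were called lower there. Of the 226 persistent decreases 195 (86.3%) were called lower in imbibed seeds. The 121 persistent increases were called higher in 57 (47.1%) and lower in 15. Of the 109 increases lost in salt 63 (57.8%) were called lower in imbibed seeds, and of the 49 decreases in salt that were increases in dry seeds 43 were.

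The promoters of each class were searched for fixed letters. A match to ACGTG lay in the 250 bases before the start of 112 of 220 genes with a persistent decrease (50.9%), beside 23.6% of 13718 promoters of the rule and 22.9% of 27443 promoters of all protein-coding genes. For decreases new in salt the share was 30.8%, for increases new in salt 25.0%, and for decreases lost in salt 23 of 44 (52.3%). CATGCA was found in 50 of the 220 (22.7%), beside 6.85% of the rule and 8.43% of all promoters, and in 9.67% of decreases new in salt. CACGTG, which contains ACGTG, was found in 24.5% of persistent decreases and 8.25% of the rule. Counting matches on either strand and overlaps, the SESA4 promoter printed above holds 8 matches to ACGTG or CATGCA and that of SESA5 6.

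The letters named for DNA damage, heat shock and growth were counted in the same way. The SOG1 site lay in 17 of 180 promoters of increases new in salt (9.44%), beside 8.51% of the rule and 9.71% of all promoters, and in 2 of the 10 DNA damage and deoxynucleotide genes with a higher effect in salt. These are the promoters of SMR5, with matches beginning 96 and 32 bases before the start, and of AT3G52115, with 1 match beginning 65 bases before it. GAANNTTC lay in 7.63% of decreases new in salt, beside 9.32% of the rule and 9.55% of all promoters, and in 2 of 13 heat shock and chaperone genes with a lower effect in salt (15.4%). In a window running to 50 bases after the start it lay in 5 of these 13 (38.5%), beside 11.5% of the rule. TGGGCC, the site II element of growth-linked promoters, lay in 49 of 180 increases new in salt (27.2%), beside 19.7% of the rule and 13.7% of all promoters. It also lay in 62 of 393 decreases new in salt (15.8%) and in 7 of the 13 heat shock and chaperone genes with a lower effect (53.8%). These counts describe letters in a fixed window and carry no test.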

How the data were processed

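Messenger RNA of ΔDS and +WT seeds was sequenced in 3 libraries per group. Per the submitters' processing notes, HISAT2, DESeq2 and TAIR10 were used, with versions, counting tool and use of strand not given in the sources used here. The deposited tables hold, per the file headers, the DESeq2 mean normalised count of each gene, a signal the authors averaged over both genotypes. The authors deposited log2 fold changes with standard errors, unshrunk by the values. The deposited score is the Wald statistic, the fold change over its error. The authors' p-values were deposited raw and adjusted.

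Dry and salt comparisons share no library, so the variance of the difference is the sum of both squared errors. The two-sided z test was adjusted by the Benjamini-Hochberg method over all 13974 genes, with calls at an adjusted p below 0.05. Group means were implied from the mean and fold change with 3 libraries per genotype and are approximate. The test and the sorting into classes were checked on simulated effects. RefSeq names matched 32835 of the 33602 identifiers. Members and lists were chosen with earlier results of these data known, and 8 entries were dropped from 25 lists of 551 genes. Genes were named by the size of the effect or difference within each class, or by the smallest adjusted p within a list, with a minimum implied mean of 50 for differences. Alternatives were centring, removal of a length trend, the larger error, a t distribution with 8 degrees of freedom, and other minima and thresholds. Another was scaling by library totals, which gave the implied means of both genotypes equal sums within each condition. Scripts ran on Python 3.11.15 with statsmodels 0.14.6, scipy 1.17.1, pandas 2.3.3, matplotlib 3.10.9 and numpy 2.4.6.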

Additional observations from a re-analysis of the deposited data

Results flagged for a closer look

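The genotype effect differed between salt and dry seeds by a test of the difference itself for 261 genes with a higher and 716 with a lower effect in salt. The most positive differences on the log2 scale, salt minus dry, among genes with an implied mean of at least 50 were 4.82 for TSO2, 3.53 for TK1a, 3.50 for ALPHA-VPE, 2.88 for AT4G37030, 2.79 for GMI1, 2.71 for AT3G52115, 2.44 for GT72B1 and 2.44 for AT2G43120. They were followed by 2.38 for AHP2, 2.35 for AT4G09595, 2.31 for WRKY25, 2.22 for FER1, 2.20 for ERD14, 2.09 for AT1G73066 and 2.01 for SAG21. The most negative were -2.58 for HRA1 (AT3G10040), -2.05 for AT4G10265, -1.95 for AT3G28155, -1.88 for AT3G21352, -1.81 for LBD41, -1.70 for BAG6, -1.64 for EMB1290 and -1.64 for MO1. They were followed by -1.58 for AT5G48570, -1.54 for HSP101, -1.51 for AGP24, -1.50 for HSP90.1, -1.48 for AT1G72430, -1.48 for AT5G55370 and -1.44 for AT3G03270. Among genes under the minimum in dry seeds, which the comparison leaves out, 217 were called higher and 18 lower in salt. These counts only describe the set, since a gene can enter it through high salt counts in 1 genotype, such as ΔDS, alone.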

How the results depend on the processing

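No paired analysis was possible because the files hold no value per library, and for the same reason no replicate could be left out. No called difference of a named gene changed sign under the alternatives run, but scaling by library totals turned the balance of higher and lower calls from mostly lower to mostly higher for the differences, the persistent and new genes and the calls in salt. With the t distribution 32 differences were called higher and 54 lower, with scaling by library totals 430 and 339, with a size of at least 1 on the log2 scale 64 and 46, and with the larger of both errors 173 were higher. At an adjusted p below 0.01 there were 78 higher and 133 lower persistent genes, 1 and 24 opposite, 113 and 263 new and 53 and 23 lost, and 839 were lower in salt while 295 were higher and 293 lower in dry seeds. Centring gave 11 opposite genes higher in salt. Scaling by totals gave 510 higher and 74 lower persistent genes, 14 opposite genes higher in salt, 359 higher and 132 lower new genes, 3262 higher and 401 lower calls in salt, and 1160 and 222 in dry seeds. With promoters running to 50 bases after the start, ACGTG was found in 26.7% of all, 27.9% of the rule's, 32.8% of new higher and 37.2% of new lower promoters. CATGCA was found in 9.72% of all and 7.54% of the rule's, the SOG1 site in 11.8% and 10.3%, and GAANNTTC in 11.6% and 11.5%, with 11.5% of new lower promoters and 38.5% of the 13 heat shock genes with a lower effect. Of 118 named genes with a called difference, 35 were called under every alternative run for them other than the size limit, and 8 of these, with a mean under 100 in one table, were not part of the alternative with that minimum. The call ended for 83 with the t distribution, 24 with the larger error, 17 with scaling by totals, 7 with the length trend removed and 3 with centring. The cause was not tested.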
